A study of Mus musculus with 12 samples.

Results

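The RNA recovered with an antibody against endogenous YTHDF3 was compared with input RNA, using the 3 YTHDF3 RIP libraries and the 3 Input libraries of the 12 libraries in the study. The members were chosen by their labels, and each RIP library was paired with the input library of the same replicate number. RNA immunoprecipitation (RIP) recovers a protein on antibody-coated beads together with the RNA bound to it, and the recovered RNA is then sequenced. Primary hippocampal neurons were prepared from newborn C57BL/6 mice of both sexes, pooled by litter, and grown for 14 days with an inhibitor of cell division against glia. For each biological replicate the lysate of several wells was pooled, a fraction was kept as Input, and the rest was divided among RIPs for YTHDF1, YTHDF2 and YTHDF3. Both groups came from wild-type cells with no treatment, no tagged protein and no knockdown. An RNA called higher was higher relative to input alone. RIP with an unrelated antibody was not analysed here, and RNA held nonspecifically by the beads could not be told apart from RNA bound by YTHDF3.

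YTHDF3 is a cytoplasmic member of the YTH family, whose YTH domain holds N6-methyladenosine (m6A), a methylated adenosine found in many mRNAs. The mark is placed by the METTL3-METTL14 complex on adenosines within short sequence words such as GGACT, often near stop codons and in long internal exons. The YTHDF proteins are best known for roles in mRNA decay and translation, and in neurons m6A has been tied to the placing of mRNAs in neurites and to synaptic function.

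The total count was between 9092494 and 13833973 in Input and between 21395271 and 22400602 in the YTHDF3 RIP, so that the RIP side was measured with more reads. Same-numbered libraries deviated together from their group means across genes, with correlations of 0.83, 0.52 and 0.80 against at most 0.0071 for libraries of different number, and the replicate number was therefore kept as a block. With the block, the biological coefficient of variation was 0.087. Without it, the value was 0.294. Levels are given as CPM, which are read counts relative to library size, scaled by the trimmed mean of M values (TMM). A gene was called where its log2 fold change was at least 0.32 in either direction and its p, adjusted by the Benjamini-Hochberg method, was 0.05 or lower in edgeR's quasi-likelihood test, which is the test behind every call and adjusted p below unless another is named.

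The YTHDF3 RIP differed from input in most of the genes tested. Of 17126 genes, 6212 were higher in the RIP (36.3% of those tested) and 5507 were lower (32.2%), and the median log2 fold change was 0.11. In 98.4% of the genes called higher and 98.9% of those called lower, all 3 pairs lay on the side of the call. The sizes were unequal in the 2 directions. At 2-fold or more, 1993 genes were higher (11.6%) and 3326 were lower (19.4%), while at a log2 fold change of 2 or more only 18 were higher and 1599 were lower. The split depended on the scaling. Without TMM, by library size alone, 8154 genes were higher and 4372 were lower, which moved the share of higher calls among all calls from 53.0% to 65.1% and the log2 fold change of the median gene by 0.27. Directions below are relative to the TMM scale.

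**Figure D1:**
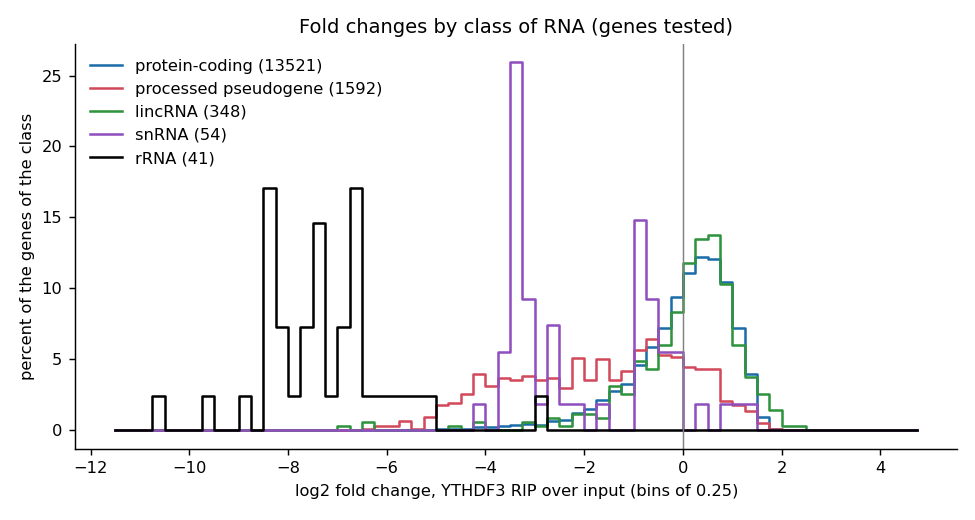
Distribution of the log2 fold change of YTHDF3 RIP over input (x axis, bins of 0.25) for the genes of 5 classes of RNA, as the percentage of the class (y axis) with the number of genes tested in brackets. Protein-coding genes and lincRNAs lie around 0, processed pseudogenes reach far to the left, and all 41 rRNA genes lie below 0.

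The classes of RNA separated first. Protein-coding genes held 64.7%, 62.1% and 62.8% of all counts in the 3 Input libraries and 94.5%, 95.3% and 94.9% in the RIP libraries. Small RNAs held 28.1%, 30.9% and 30.01% of the counts in Input but 0.84%, 0.53% and 0.71% in the RIP. The 2 groups did not overlap for either class. Most of the small RNA share in Input was that of genes annotated as miRNA (17.5%, 18.8% and 17.7%) and misc_RNA (9.32%, 10.5% and 10.9%). Genes of these biotypes went in both directions. Of 203 miRNA genes tested, 64 were higher and 75 were lower (median 0.09). Of 47 misc_RNA genes, 16 were higher and 20 were lower (median -0.01). The fall in share was therefore not a fall of most of these genes. Of 13521 protein-coding genes tested, 5483 were higher (40.6%) and 3828 were lower (28.3%), with a median log2 fold change of 0.19. Long non-coding RNAs were close to this, with 303 higher and 183 lower of 945 and a median of 0.25. All 41 rRNA genes tested were lower, with a median log2 fold change of -7.36, or -6.73 when the 7 genes without a single RIP read were set to the bound given by 3 counts per library. Of 54 snRNA genes, 44 were lower and 3 were higher (median -2.52). Of 79 snoRNA genes 41 were lower and 22 were higher, with a median of -0.93 that was 1.103 after removal of a trend on exonic length. Processed pseudogenes, 1592 of which were tested, had a median of -1.56 with 1124 lower and 138 higher, and a median of 0.03 after the same removal. Reads of a pseudogene and its parent gene cannot be separated in these files, since a read with several alignments was counted at each.

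Abundant RNAs made by RNA polymerase III were among the lowest. Of the 13 tested on a list of such RNAs and other abundant small RNAs, all were lower, by at least 2-fold. Rn7s2, a copy of the 7SL RNA of the signal recognition particle, had 517574, 599549 and 406842 counts in Input and 3447, 1853 and 2822 in the RIP, a log2 fold change of -8.74 ± 0.23 (SE). Rn7sk, which controls transcription elongation in the nucleus, changed by -7.42 ± 0.16. Bc1, a cytoplasmic RNA of neuronal dendrites that binds translational repressors, had 4082, 3581 and 1384 counts in Input and a log2 fold change of -6.49 ± 0.16. Its RIP counts, the lowest of which was 22, were all below every input count although the RIP libraries were the deeper ones. Gm24105, annotated as misc_RNA, had 186, 229 and 131 counts in Input and none in any RIP library, which makes it at least 132-fold lower against a floor of 3 counts per library. One protein-coding gene went with this class. Ccnb1ip1, a meiotic ubiquitin ligase gene, had the lowest log2 fold change of all named protein-coding genes, at -8.03 ± 0.21, but it overlaps Rpph1, the gene for the RNA of RNase P. Its 97881, 110034 and 78519 Input counts were nearly those of Rpph1, at 97911, 110062 and 78532, and in the RIP the counts of both genes were 1212, 704 and 610.

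Among mRNAs, the change followed the length of the coding sequence. The 13521 protein-coding genes were divided into 5 equal classes by the coding length of 1 mRNA per gene. In the shortest class, 22 to 747 bases, 246 of 2717 genes were higher and 1838 were lower, with a median log2 fold change of -0.98. The classes that followed had medians of -0.23 (0.04 with library size alone), 0.11 (-0.05 with TMM over protein-coding genes, -0.02 after removal of the trend on exonic length) and 0.43. In the longest class, from 2586 bases up, 2285 of 2700 genes were higher, 28 were lower and the median was 0.89. The order of the 5 medians was the same in each of the 3 pairs, from -0.98, -0.93 and -0.99 in the shortest class to 0.78, 0.94 and 0.93 in the longest. Genes called higher had a median coding length of 2286 bases and encoded a median protein of 761 residues, against 774 bases and 257 residues for genes called lower. Over all 13521 genes, Spearman's rho with the log2 fold change was 0.67 for coding length and 0.61 for whole mRNA length, as descriptions across genes that are not independent replicates.

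**Figure D2:**
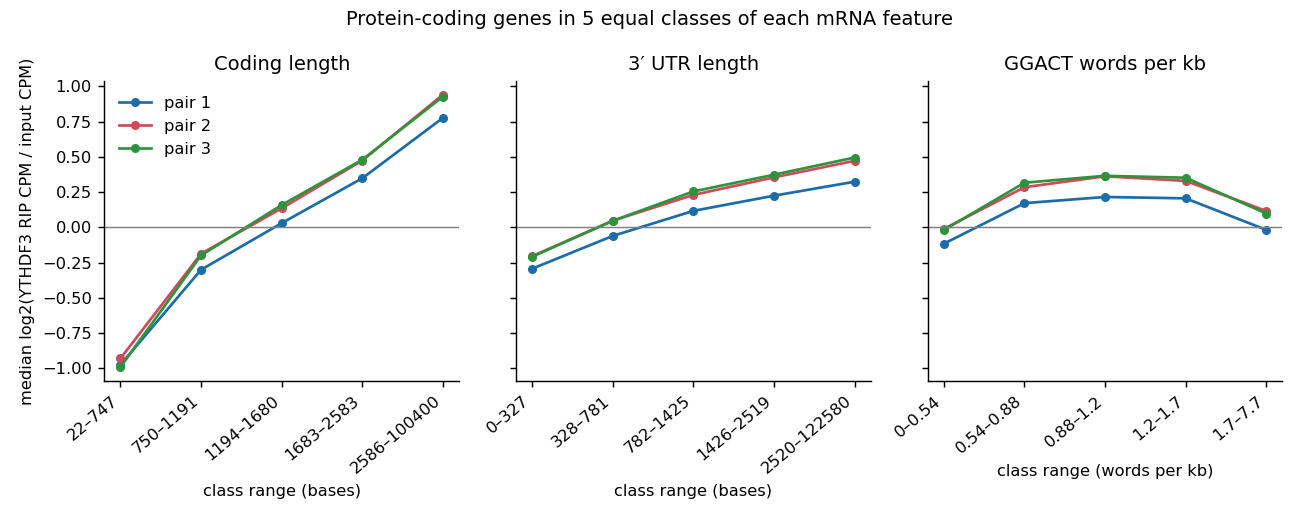
Median log2 ratio of YTHDF3 RIP CPM to input CPM (y axis) in each of the 3 pairs, for protein-coding genes in 5 equal classes of coding length, 3′ UTR length and GGACT words per kb (x axis, class ranges in bases or words per kb). The lines climb steeply over coding length in every pair, from between -0.99 and -0.93 to between 0.78 and 0.94, less over 3′ UTR length, and they rise and come down again over GGACT words.

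The untranslated part behaved differently. Across 5 classes of 3′ UTR length the medians were -0.22, 0.03, 0.21, 0.31 and 0.44, a narrower range than for coding length, and rho was 0.25. Among mRNAs of similar whole length the relation to the 3′ UTR turned over. Within the 4 longer of 5 classes of mRNA length, rho with 3′ UTR length was -0.29, -0.39, -0.42 and -0.44, while rho with coding length was 0.37, 0.40, 0.47 and 0.61. In the longest mRNAs, from 5149 bases up, the tertile with the largest coding share had a median of 1.12, with 825 of 901 genes higher and 0 lower. The tertile with the smallest coding share, at most 31.7% of the mRNA, had a median of 0.36, with 460 of 901 higher and 117 lower. Stx8, a SNARE protein of endosomes, has an mRNA of 4394 bases, in the second longest class, of which 711 are coding and 3375 lie in the 3′ UTR. Stx8 was at 11.6, 10.8 and 10.6 CPM in Input and 3.77, 4.28 and 4.598 CPM in the RIP, a log2 fold change of -1.39 ± 0.15. Dnajc13, a co-chaperone of endosomes with 6732 coding bases, went from 64.2, 59.7 and 64.6 CPM to 146, 160 and 172 CPM (1.34 ± 0.10). The groups did not overlap for either gene.

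The same shift was visible in raw shares, which do not depend on the scaling. The longest coding class held 30.5%, 30.8% and 29.3% of protein-coding counts in Input and 47.1%, 48.0% and 46.9% in the RIP. The shortest class held 15.8%, 15.3% and 16.7% in Input and 7.38%, 6.85% and 6.97% in the RIP. Over all protein-coding genes, rho between the change and mean input CPM was 0.01, and medians were between 0.09 and 0.30 over 5 classes of level. Within the 5 classes of mRNA length, from short to long, the same rho was -0.39, -0.32, -0.19, -0.11 and 0.10. Input CPM is also the denominator of the change. The lowest class of level starts at 0.0 CPM, so it holds genes that passed the filter through RIP libraries. These values therefore cannot show whether the change depends on level. Genes annotated with a single exon block had a median of 0.14 over 466 genes, close to the 0.19 over 13055 multi-exon genes. Their spread was wider, with 26.0% against 14.3% lower at 2-fold or more, and 14.4% against 12.2% higher at 2-fold or more.

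**Figure D3:**
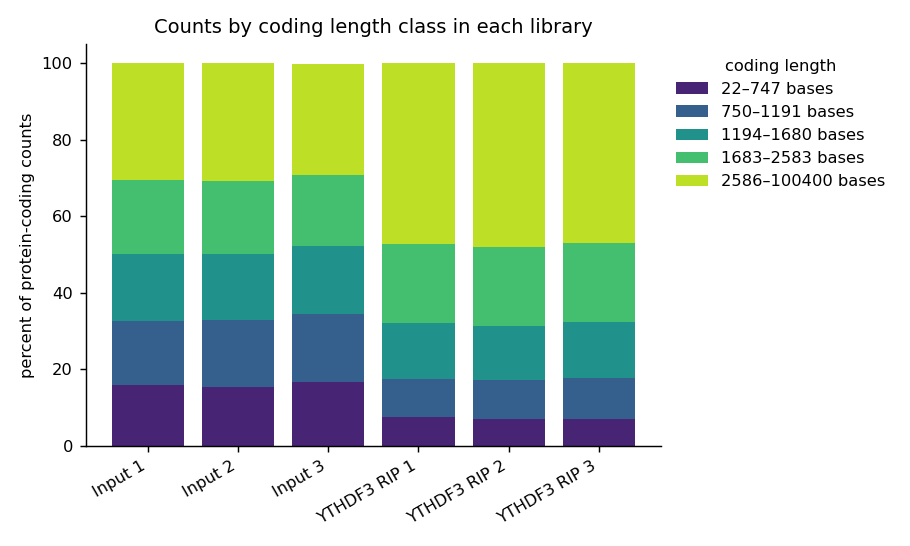
Share of protein-coding counts (y axis, percent) that fell in each of 5 equal classes of coding length, as stacked bars for each Input and YTHDF3 RIP library (x axis). The top segment, genes with 2586 coding bases or more, grew from 29.3% to 30.8% in Input to between 46.9% and 48.0% in the RIP, and the bottom segment shrank from over 15.3% to at most 7.38%.

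The short word at which m6A is often placed was held by more of the mRNAs called higher than of those called lower, while its number per kb was similar. GGACT was searched on the sense strand of the chosen mRNA, and 92.0% of all 13521 mRNAs held it at least once. It was present in 97.2% of mRNAs called higher and 83.1% of those called lower, and in the coding sequence of 88.1% and 59.7%. Per kb of mRNA, genes called higher had a median of 1.07 words and genes called lower a median of 1.01. The number of words per mRNA, which grows with length, had a rho of 0.47 with the log2 fold change, and the number per kb a rho of 0.05. Within 200 bases of the stop codon it was found in 39.996% of mRNAs called higher, 38.01% of those called lower and 39.2% of all. The length of the longest internal exon had a rho of 0.39 with the log2 fold change, and of 0.10 to 0.40 within the classes of mRNA length. Whether this is separate from coding length was not tested. Within each class of mRNA length, rho between words per kb and the log2 fold change was between 0.08 and 0.15. In the longest mRNAs the medians were 0.93 in the tertile richest in the word and 0.71 in the poorest. The last coding GGACT of 3 genes that were higher and 3 that were lower is printed here to show the word in its surroundings, with 8 bases on each side in lower case, from GENCODE M21 mRNAs of GRCm38.
Shank1: accaaggaGGACTatgtggac
Trim67: tgcacacaGGACTggaggtgc
Hivep2: aagcgggtGGACTttcagagc
Lars2: ctcccccaGGACTgccctcat
Actb: attgtgatGGACTccggagac
Eif5a: gatgatttGGACTtcgagaca
The word ends 77 bases before the end of the coding sequence in Shank1 (chr7:44310253-44360572), 46 in Trim67 (chr8:124793092-124834713) and 77 in Hivep2 (chr10:13966075-14151374). It ends 30 bases before it in Lars2 (chr9:123366927-123462666), 665 in Actb (chr5:142903115-142906754) and 446 in Eif5a (chr11:69916714-69921958). The 3 lower genes were taken from those that hold the word, and whether the reads counted for Lars2 came from its mRNA was not tested. All 10 of the highest named protein-coding genes given below hold it, whereas Ccnb1ip1, Rplp1, Rpl39, Hist1h4c, Hist1h4f and Hist1h4h, 6 of the 10 lowest, hold none, and neither does Igfbp2. The mRNAs of those 6 are short, from 391 bases in Hist1h4f to 1509 in Ccnb1ip1. Those of the 10 highest run from 1749 bases in Rsrp1 to 10879 in Celsr1, so the contrast cannot be told apart from length. Ccnb1ip1 had nearly the same counts as Rpph1, which it overlaps, so its change need not be that of its mRNA. A match is a run of letters and not a measured m6A site, and methylation was not measured in these libraries.

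Long structural proteins formed the list with the highest median. All 30 giant cytoskeletal and membrane-skeleton genes were higher, 24 of them at 2-fold or more, with a median log2 fold change of 1.26 and a median coding length of 7748 bases. After removal of the trend on exonic length the median was 0.42, with 20 higher and 3 lower. Map1a, a microtubule-associated protein of dendrites, was at 1201, 881 and 602 CPM in Input and 3361, 2743 and 1779 CPM in the RIP (1.56 ± 0.11). Map1b, its relative in growing axons, had the highest CPM of all protein-coding genes in the RIP. It rose from 4784, 3408 and 4123 CPM to 12659, 10889 and 11663 CPM (1.53 ± 0.13). Map2, the classic marker of dendrites, was at 1996, 1544 and 1458 CPM in Input and 3722, 3050 and 2288 CPM in the RIP (0.84 ± 0.12). Each RIP library was above each input library for Map1b and Map2. The spectrins Sptan1 and Sptbn1 and the ankyrin Ank2, parts of the membrane skeleton of axons, changed by 1.23 ± 0.11, 1.252 ± 0.12 and 1.43 ± 0.12. By contrast, of 26 genes for actin, tubulin and their small partners 22 were lower and 1 was higher, with a median of -1.34. Actb, cytoplasmic actin, fell from 2194, 1943 and 2527 CPM to 641, 548 and 599 CPM (log2 fold change -1.89 ± 0.11, edgeR adjusted p = 4.15e-13). Tmsb4x, the actin-sequestering thymosin, fell from 453, 339 and 439 CPM to 24.3, 13.6 and 14.0 CPM (-4.598 ± 0.13). Marcks, a membrane-linked actin-binding protein with a 2733-base 3′ UTR, was the only gene of this list called higher, at 0.54 ± 0.11.

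Motor proteins split within the list. Of 62 kinesin and dynein genes, 36 were higher (58.1%) and 14 were lower (22.6%), beside 40.6% and 28.3% of all protein-coding genes. The mitotic kinesin Kif14, with only 9, 34 and 48 counts in Input and 43, 177 and 410 in the RIP, changed by 1.48 ± 0.19. The dynein light chain Dynlrb1, with 291 coding bases, fell from 76.1, 60.1 and 76.6 CPM to 6.07, 5.02 and 4.83 CPM (-3.74 ± 0.12). Heavy and light chains of 1 complex thus lay far apart, since Dync1h1, the dynein heavy chain, was higher at 1.30.

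Genes for the scaffolds of the synapse were mostly higher on both sides of the cleft. Of 28 postsynaptic scaffold genes, 22 were higher and 2 were lower (median 0.79). After removal of the trend on exonic length 14 were higher and 5 were lower (median 0.33), and 13 were higher with no replicate block. Of 21 genes for presynaptic active zone scaffolds 20 were higher and 0 were lower (median 1.02). Shank1, a master scaffold of the postsynaptic density, was at 672, 465 and 452 CPM in Input and 1660, 1866 and 1645 CPM in the RIP, a log2 fold change of 1.72 ± 0.12 (edgeR adjusted p = 1.63e-11). Its RIP libraries were all more than 2-fold above the highest input library. Its relatives Shank2 and Shank3 were higher at 1.24 and 1.12. Dlg4, which encodes PSD-95, the most familiar scaffold of excitatory synapses, went the other way, from 515, 449 and 298 CPM to 314, 249 and 144 CPM (-0.87 ± 0.10, edgeR adjusted p = 3.21e-08). It was lower in each pair, although the highest RIP library stood above the lowest input library. Its paralogs Dlg1 and Dlg2 were called higher, at 0.36 and 0.39. At the active zone, Tspoap1, which binds RIM proteins and calcium channels, had the highest value at 1.68 ± 0.11. The giant scaffolds Bsn and Pclo were higher at 1.59 and 1.34.

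Receptors for the main excitatory and inhibitory transmitters gave different counts. Of 24 glutamate receptor genes tested, 19 were higher and 0 were lower (median 0.85), and of 14 GABA receptor genes 2 were higher and 5 were lower (median -0.12, and 0.14 with library size alone). The shares over all protein-coding genes were 40.6% higher and 28.3% lower. Grin3a, an NMDA receptor subunit, rose from 31.7, 25.3 and 33.0 CPM to 71.4, 85.0 and 86.9 CPM (1.44 ± 0.11). Gria2, the AMPA receptor subunit that limits calcium entry, was higher at 1.17 ± 0.10, while Gria1 was at 0.20 ± 0.10 and was not called. Gabra2, a GABA-A subunit, was higher at 0.69 ± 0.11, and Gabrg3 was lower at -0.58 ± 0.12 despite an mRNA of 9767 bases, of which 1404 are coding. The median coding length was 2783 bases over the glutamate receptor list and 1424 bases over the GABA receptor list. After removal of the trend on exonic length, 12 glutamate receptor genes were higher and 1 was lower (median 0.33), and 0 GABA receptor genes were higher and 9 were lower (median -0.42). The difference between the lists was not tested.

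Adhesion and matrix genes were mostly higher. Of 35 synaptic adhesion genes 28 were higher and 1 was lower, of 19 large cadherins and adhesion GPCRs 18 were higher and 1 was lower, and of 62 matrix genes 45 were higher and 2 were lower, with 7 higher in the fit with no replicate block. Celsr1, an atypical cadherin of planar cell polarity, had the highest log2 fold change among protein-coding genes named by level and agreement, at 19.9, 25.1 and 46.4 CPM in Input and 57.6, 114 and 220 CPM in the RIP (2.01 ± 0.12). Slitrk1, a leucine-rich repeat protein that induces synapses, rose by 1.48 ± 0.10. The collagen subunit Col6a3, with only 10, 48 and 40 counts in Input and 48, 356 and 302 in the RIP, was higher at 1.65 ± 0.19. The secreted matrix protein Sparc, with 909 coding bases, was lower at -1.30 ± 0.11. Clustered protocadherins, which give neurons individual surface identities, were higher in 55 of 56 genes. The 14 Pcdha and 21 Pcdhg genes share 3′ exons and hence reads, and values within each cluster were nearly alike, with medians of 1.06 and 0.61. The 21 Pcdhb genes have no such shared exons and ranged from 0.38 to 1.41, with 20 higher.

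Removal of the trend on exonic length brought the medians of other higher lists nearer to 0 as well. The median became 0.54 for chromatin regulators, with 39 higher and 3 lower, and 0.67 for large cadherins and adhesion GPCRs, with 14 higher and 1 lower. It became 0.32 for active zone scaffolds, 0.32 for synaptic adhesion genes, 0.30 for matrix genes and 0.28 for sodium and calcium channels, with 11, 17, 25 and 15 genes higher. Over the coding length classes themselves, the medians after this removal ran from -0.65 to 0.398, in the same order. Lists that were mostly lower had shorter coding sequences, with medians of 456 bases for cytosolic ribosomal proteins, 432 for the respiratory chain and 585 for mitochondrial ribosomal proteins. Medians were 393 bases for histone genes, 450 for short abundant mRNAs, 807 for actin, tubulin and their partners and 933 for the proteasome. Their values after the removal are not reported here.

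**Figure D4:**
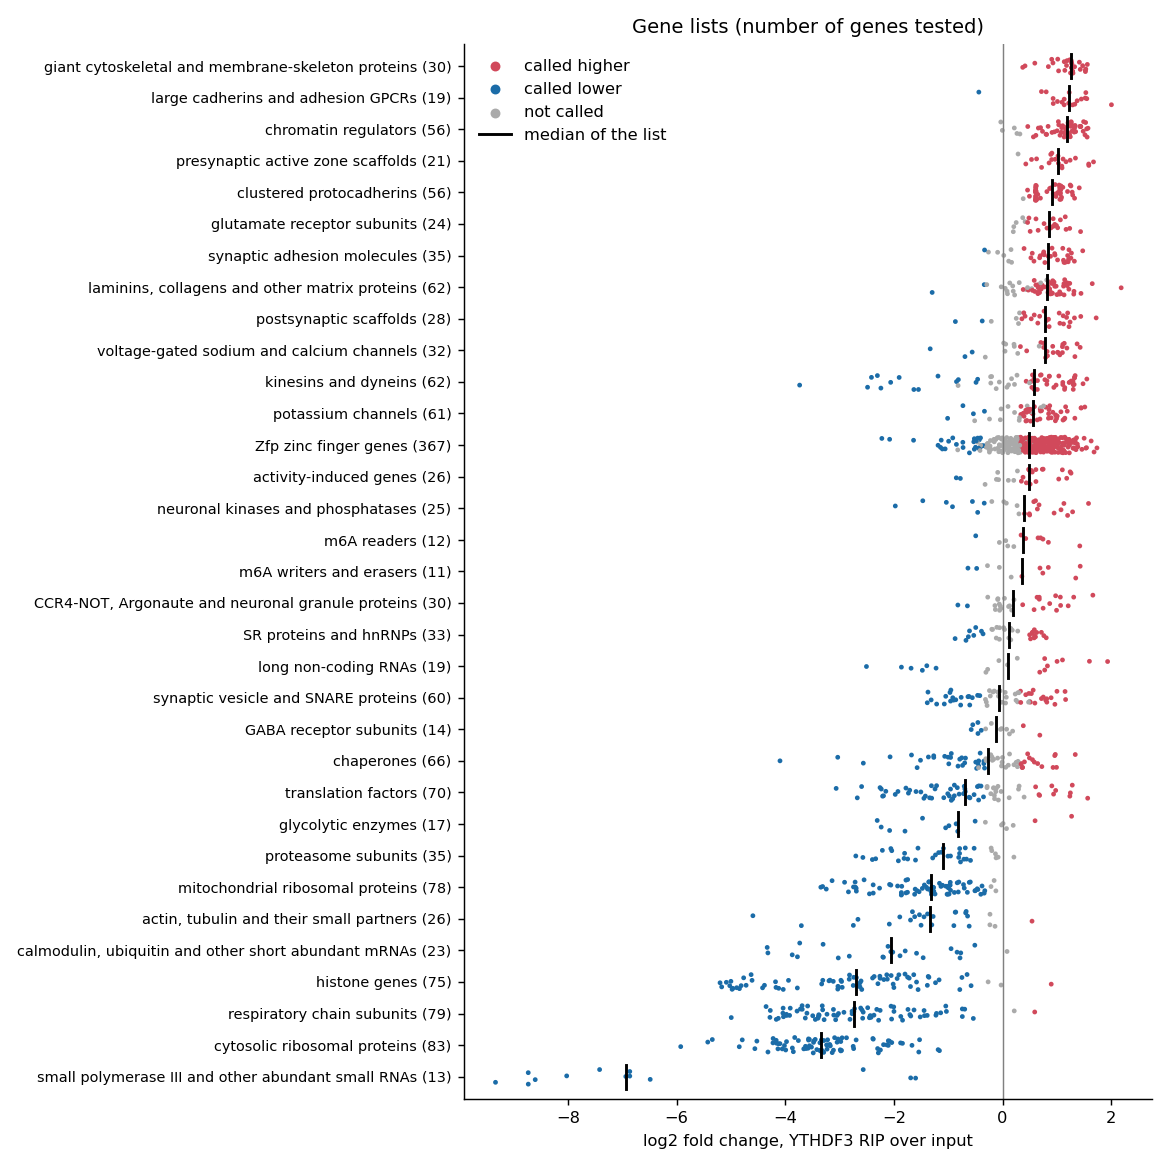
Log2 fold change of YTHDF3 RIP over input (x axis) of the genes tested in each list (y axis, number of genes in brackets), with a point per gene coloured by its call and a black bar at the median. Lists of long proteins such as chromatin regulators (median 1.18) lie on the right, and cytosolic ribosomal proteins (median -3.33) and small RNAs lie on the left.

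Ion channel genes were mostly higher. Of 32 sodium and calcium channel genes 21 were higher (65.6%) and 3 were lower (9.38%). Of 61 potassium channel genes 45 were higher (73.8%) and 4 were lower (6.56%), beside 40.6% and 28.3% of all protein-coding genes. Scn2a, a pore-forming sodium channel of axons, was at 454, 336 and 228 CPM in Input and 1066, 901 and 631 CPM in the RIP (1.37 ± 0.10). Its RIP libraries were all above its input libraries. Cacnb1 and Cacnb3, which encode accessory subunits of calcium channels, were lower at -0.56 and -0.69. Kcna6, a voltage-gated potassium channel with 1590 coding and 3496 3′ UTR bases, rose by 1.52 ± 0.11, the highest of the list, with a coding length equal to the list's median.

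In the synaptic vesicle and SNARE list 18 of 60 genes were higher and 21 were lower, with a median of -0.06 (0.21 with library size alone and 0.03 without the filter on low counts). Stxbp5, the syntaxin-binding protein tomosyn, rose by 1.15 ± 0.10. Slc17a7, the vesicular glutamate transporter of excitatory neurons, fell from 562, 428 and 178 CPM to 232, 166 and 89.7 CPM (-1.21 ± 0.10). Its coding sequence of 1683 bases lies at the lower edge of the second longest class, in which 181 of 2698 genes were lower.

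Genes of nuclear regulators were also mostly higher. Of 56 chromatin regulators 51 were higher, 40 at 2-fold or more, and 0 were lower, with a median of 1.18 and a median coding length of 5486 bases. Arid2, a subunit of a SWI/SNF remodeller, was at 66.8, 69.9 and 64.6 CPM in Input and 191, 202 and 208 CPM in the RIP (1.57 ± 0.10). The methyltransferase Ezh2, at -0.03, was among the 5 not called. Of 367 Zfp zinc finger genes 229 were higher (62.4%) and 26 were lower (7.08%). Those called with a mean count of at least 100 over the 6 libraries ran from Zfp217 (1.69 ± 0.18) to Zfp580 (-2.08 ± 0.12). Zfp217 reached that mean through the RIP, with 20, 41 and 50 counts in Input and 89, 263 and 529 in the RIP. SR proteins and hnRNPs, which bind pre-mRNA, had 12 of 33 higher (36.4%) and 8 lower (24.2%), beside 40.6% and 28.3% of all protein-coding genes. They ran from Srsf5 (0.80 ± 0.10) to Hnrnpab (-0.87 ± 0.09), with a median of 0.12. The median was -0.05 when TMM was computed over protein-coding genes alone, -0.16 after removal of the trend on exonic length and -0.01 without replicate 1.

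The mRNAs of the m6A machinery itself went in both directions. Among 11 writers and erasers, Mettl3, the catalytic subunit of the writer, was higher at 0.69 ± 0.12 with 142, 153 and 111 counts in Input and 440, 426 and 604 in the RIP. Its partner Mettl14 was not called, at -0.06. Rbm15b, which helps to bring the writer to RNA, rose from 50.6, 48.5 and 64.2 CPM to 115, 149 and 181 CPM (1.43 ± 0.10). Virma, the largest subunit of the complex, was higher at 1.35 ± 0.10. The eraser Fto was lower, from 100.02, 101 and 78.1 CPM to 65.0, 58.8 and 54.9 CPM (-0.64 ± 0.09), and the eraser Alkbh5 was not called at 0.16. In all, 6 of the 11 were higher and 2 were lower, and of 12 readers 7 were higher and 1 was lower, beside 40.6% higher and 28.3% lower among all protein-coding genes. After removal of the trend on exonic length the medians of both lists were 0.01 and 0.02, with 5 and 3 genes higher and 3 and 2 lower. Readers ran from Prrc2a (1.42 ± 0.10) to Hnrnpc (-0.49 ± 0.10).

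The transcripts of the YTHDF proteins did not differ greatly. Ythdf3 itself was at 56.7, 47.5 and 45.2 CPM in Input and 73.4, 87.5 and 74.1 CPM in the RIP (0.65 ± 0.10, edgeR adjusted p = 5.67e-06), with no overlap of the groups. Ythdf1 was at 52.6, 53.4 and 48.2 CPM in Input and 69.5, 74.0 and 64.2 CPM in the RIP (0.43 ± 0.09). Ythdf2 was at 44.1, 39.3 and 48.0 CPM in Input and 48.9, 47.7 and 54.9 CPM in the RIP and was not called (0.21 ± 0.10, edgeR adjusted p = 0.0554). These values concern the mRNAs, and the recovery of YTHDF3 protein was not measured in these files.

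Cytoplasmic regulators of mRNA fate had 14 of 30 higher (46.7%) and 2 lower (6.67%), beside 40.6% and 28.3% of all protein-coding genes. The list had a median of 0.19 that was -0.07 after removal of the trend on exonic length. The 3 Tnrc6 genes, scaffolds of microRNA silencing, were all higher, with Tnrc6c at 125, 121 and 107 CPM in Input and 357, 380 and 381 CPM in the RIP (1.66 ± 0.10) and Tnrc6a and Tnrc6b at 1.31 and 1.06. Cnot4 was lower at -0.82 ± 0.10, and Cnot1, the long scaffold of the CCR4-NOT deadenylase, was higher at 1.21.

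Genes for cytosolic ribosomal proteins and the respiratory chain were nearly all lower. Their median coding lengths, 456 and 432 bases, lie in the shortest coding class, in which 67.6% of all genes were lower. All 83 cytosolic ribosomal protein genes tested were lower at 2-fold or more, with a median of -3.33 and values from -5.93 to -1.16. Rplp1, an acidic protein of the ribosomal stalk, fell from 274, 270 and 250 CPM to 6.74, 3.19 and 3.43 CPM (-5.93 ± 0.16, edgeR adjusted p = 2.64e-19). Together the 86 genes of the list held 1.27%, 1.48% and 1.97% of protein-coding counts in Input and 0.149%, 0.125% and 0.190% in the RIP. Reads of these genes are shared with their many pseudogenes. Of 78 mitochondrial ribosomal protein genes 75 were lower and 0 were higher (median -1.31), and Mrpl52 was lowest at -3.35 ± 0.15. Of 79 nuclear-encoded subunits of the respiratory chain 77 were lower and 1 was higher (median -2.74). Atp5e, the smallest subunit of the ATP synthase head with 159 coding bases, fell from 25.7, 24.9 and 36.9 CPM to 0.838, 0.830 and 1.05 CPM (-4.997 ± 0.16). Ndufs1, the large subunit of complex I with 2184 coding bases, was the 1 called higher at 0.59 ± 0.10.

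Translation factors and the proteasome were mostly lower. Of 70 translation factor genes 44 were lower and 10 were higher, among them Eef1b2 (-3.06 ± 0.11) and the large scaffold Eif4g3 (1.28 ± 0.10). Eif5a, the hypusine-bearing elongation factor, fell from 166, 139 and 172 CPM to 29.0, 23.2 and 26.8 CPM (-2.60 ± 0.10, edgeR adjusted p = 7.79e-17). Of 35 proteasome genes 29 were lower and 0 were higher, with Psmb6, a catalytic subunit, at -2.70 ± 0.11. Among 17 glycolytic genes 10 were lower and 2 were higher. The triose phosphate isomerase gene Tpi1 was at -2.31 ± 0.11 and the phosphofructokinase gene Pfkp at 1.27 ± 0.12. Chaperones were mixed, with 16 of 66 higher (24.2%) and 30 lower (45.5%), beside 40.6% and 28.3% of all protein-coding genes. Of 23 short abundant mRNAs such as those of calmodulin, ubiquitin and ferritin 22 were lower and 0 were higher (median -2.06). The copper chaperone Atox1 had the lowest value at -4.33 ± 0.19, and Ubb, a polyubiquitin gene, was lower at -0.84 ± 0.12. Igfbp2, a secreted binding protein of insulin-like growth factors, fell from 46.2, 108 and 152 CPM to 11.1, 34.4 and 36.0 CPM (-1.92 ± 0.11).

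**Figure D5:**
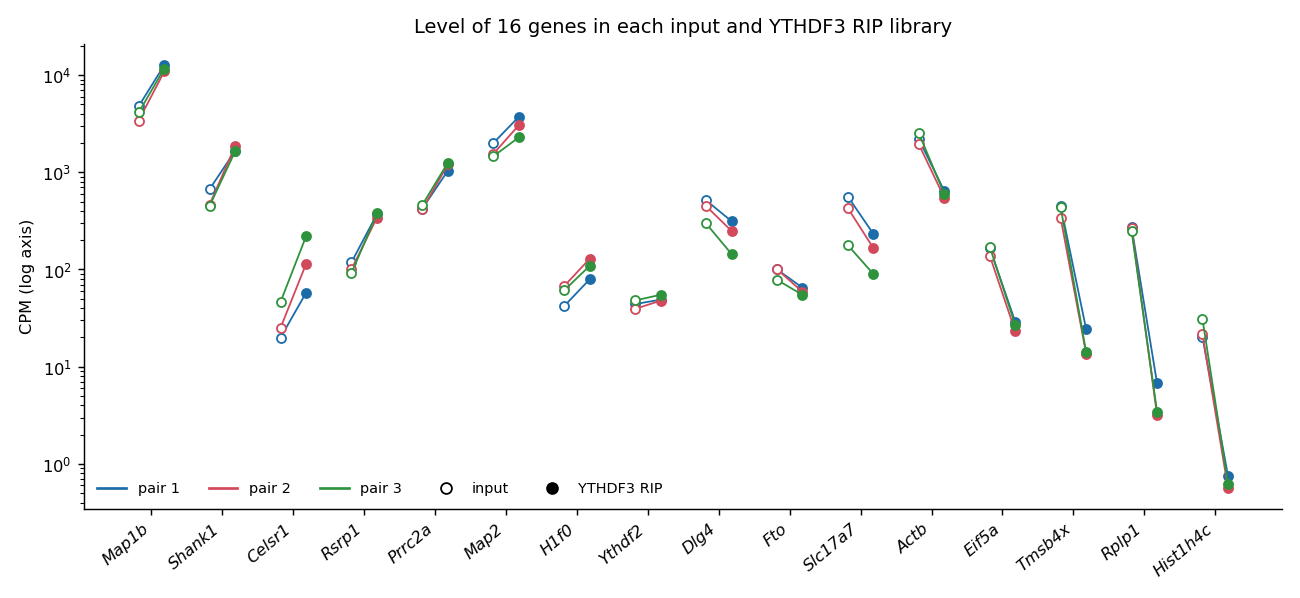
CPM (y axis, log scale) of 16 genes in each Input library (open points) and YTHDF3 RIP library (filled points), with a line for each of the 3 pairs. The lines of Map1b, Shank1 and Celsr1 rise in every pair, those of Dlg4, Fto and Slc17a7 fall in every pair, and those of Rplp1 and Hist1h4c fall most, with fitted log2 fold changes of -5.93 and -5.20.

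Histone genes were lower in 72 of 75 and higher in 1. Most mammalian histone mRNAs of the replication-dependent kind have no poly(A) tail and end in a conserved stem-loop. The stem-loop, searched by its consensus on the sense strand of the 3′ UTR, was found in 50 of the 13521 mRNAs (0.370%). Of the 46 histone genes tested that hold it, 45 were lower, with a median of -3.00. The 29 histone genes in which it was not found had 27 lower and a median of -2.39. Some of these, such as Hist1h4k (-4.61) and Hist1h3h (-4.81), are annotated only to the end of the coding sequence. The search could not find the element there, so the 2 medians do not compare genes with and without it. The element is printed in capitals with 5 bases on each side for 4 genes, to show how alike it was in genes with very different changes.
Hist1h4c: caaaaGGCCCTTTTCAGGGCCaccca
Hist1h3f: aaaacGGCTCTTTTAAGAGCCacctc
Hist1h1e: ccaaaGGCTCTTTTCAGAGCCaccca
H2afx: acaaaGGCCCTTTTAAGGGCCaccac
Hist1h4c (chr13:23697635-23698454) fell from 20.3, 21.5 and 30.9 CPM to 0.754, 0.568 and 0.623 CPM, a log2 fold change of -5.20 ± 0.19. Hist1h3f (chr13:23544052-23545312) changed by -5.02 ± 0.14. Hist1h1e (chr13:23620629-23622558), a linker histone gene, was lower by a smaller amount at -0.58 ± 0.10, and H2afx (chr9:44334694-44336077) was not called at -0.03 ± 0.11. Histone families differed in the size of the change at similar coding lengths. The medians were -4.42 over 13 H4 genes and -4.83 over 12 H3 genes, but -2.82 over 17 H2A and -2.09 over 18 H2B genes, with median coding lengths of 312, 411, 393 and 381 bases. Near-identical histone copies share reads, so the members of a family are not independent. The 1 gene called higher, H1f0, encodes the linker histone of nondividing cells and went from 42.0, 67.6 and 61.1 CPM to 79.4, 129 and 109 CPM (0.90 ± 0.09) with 585 coding bases.

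Among protein-coding genes with a mean count of at least 100, agreement of all 3 pairs and no predicted symbol, the 10 highest log2 fold changes, from 1.75 to 2.01, were those of Celsr1, Snhg11, Trim67, Clspn, Soga1, Rsrp1, Tnrc18, Mfhas1, Hivep2 and Leng8. The mean was taken over both groups. Clspn, with 2, 36 and 61 counts in Input, reached it through RIP counts of 33, 271 and 571. Trim67, a neuronal ubiquitin ligase of axon guidance, went from 80.4, 63.9 and 166 CPM to 214, 290 and 732 CPM (1.91 ± 0.12). Hivep2, a zinc finger transcription factor of forebrain neurons, went from 484, 346 and 290 CPM to 1430, 1216 and 1067 CPM (1.75 ± 0.11). Not all of the 10 had long coding sequences. Rsrp1, an arginine- and serine-rich protein gene with 897 coding bases, was at 119, 100.2 and 91.6 CPM in Input and 371, 342 and 377 CPM in the RIP (1.82 ± 0.10). Snhg11, a small nucleolar RNA host gene that the annotation used here lists as protein-coding with 264 coding bases, was at 275, 151 and 77.1 CPM in Input and 810, 606 and 371 CPM in the RIP (1.94 ± 0.12). In both genes all RIP libraries were above all input libraries. Under the same conditions the 10 lowest, from -8.03 to -5.02, were Ccnb1ip1, Rplp1, Rps12-ps3, Rpl39, Lars2, Rps29, Hist1h4c, Hist1h4f, Hist1h4h and Hist1h3f. The value of Ccnb1ip1 need not be that of its mRNA, since its counts were nearly those of the overlapping Rpph1. Lars2, the mitochondrial leucyl-tRNA synthetase gene with 2709 coding bases, was also among the 28 genes of the longest coding class that were lower. It fell from 2555, 2375 and 1625 CPM to 79.9, 34.2 and 49.996 CPM (-5.37 ± 0.18). Whether the reads counted for Lars2 came from its mRNA was not tested, so its value is that of reads assigned to the gene.

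Long non-coding RNAs varied as much as mRNAs. Of 19 on the list 8 were higher (42.1%) and 6 were lower (31.6%), beside 36.3% and 32.2% of all genes tested. The list had a median of 0.09 that was -0.07 with TMM over protein-coding genes, -0.13 after removal of the trend on exonic length and -0.11 without replicate 3. The lincRNAs Gm7292 and 2900097C17Rik were higher at 1.91 ± 0.11 and 1.80 ± 0.12. Rian and Meg3, imprinted RNAs of the Dlk1-Dio3 region, were higher at 1.104 and 0.83, and the imprinted Peg13 at 1.6005. Malat1, a nuclear RNA, was lower at -1.39 ± 0.14, as was Pantr1, at 8.70, 20.8 and 21.1 CPM in Input and 2.18, 3.32 and 3.16 CPM in the RIP (-2.51 ± 0.16).

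Among activity-induced genes 17 of 26 were higher (65.4%) and 2 were lower (7.69%), beside 40.6% and 28.3% of all protein-coding genes. Ier5, an early response gene with 927 coding and 2143 3′ UTR bases, rose from 16.9, 16.4 and 24.2 CPM to 29.7, 47.0 and 65.1 CPM (1.26 ± 0.12), and Atf3, a stress-induced transcription factor, fell from 11.2, 8.60 and 2.89 CPM to 6.91, 4.94 and 1.52 CPM (-0.78 ± 0.17). The groups of Ier5 did not overlap, and those of Atf3 did. Arc and Fos, widely used markers of neuronal activity, were not called, at -0.11 and -0.32. Among 25 kinases and phosphatases 13 were higher (52.0%) and 7 were lower (28.0%), beside 40.6% and 28.3% of all protein-coding genes. The list had a median of 0.40 that was -0.18 after removal of the trend on exonic length. Camk2a, a calcium-dependent kinase whose mRNA lies in dendrites, was at 1082, 885 and 398 CPM in Input and 1595, 1294 and 655 CPM in the RIP (0.61 ± 0.10, edgeR adjusted p = 1.38e-05). It was higher in each pair, while the groups overlapped, and both libraries of replicate 3 were low. Prkce, a protein kinase C isoform, was higher at 1.58 ± 0.11, and Ppp1ca, the catalytic subunit of protein phosphatase 1, was lower at -1.98 ± 0.11.

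The cultures of the replicates differed in cell markers, which moved in both libraries of a pair. Neuronal markers were detected in all libraries, with a summed level of 2741 to 4354 CPM in Input and 3459 to 6151 CPM in the RIP over 6 genes. The 8 astrocyte markers summed to 1188, 3261 and 3829 CPM in Input and to 1311, 3214 and 3138 CPM in the RIP. The oligodendrocyte lineage receptor Pdgfra was at 0.609, 85.7 and 104 CPM in Input and 0.964, 209 and 250 CPM in the RIP, so that replicate 1 had nearly none in either library. The proliferation marker Mki67 was at 4.52, 54.8 and 112 CPM in Input and 9.68, 148 and 263 CPM in the RIP. Microglial markers stayed at 2.3 to 9.2 CPM in sum over 7 genes. Endothelial markers summed to 4.5 to 15.3 CPM over 5 genes, fibroblast markers to 6.7 to 213 CPM over 6 genes, and ependymal and choroid plexus markers to 7.7 to 15.5 CPM over 4 genes. The terms for replicate number were called in 6926 of 17126 genes (40.4%), led by Pdgfra, C3, Mfge8, Lcn2 and Mki67. Both libraries of a number came from 1 lysate. The test thus set replicate differences against the spread of RIP over input, and not against spread between independent cultures. In these bulk samples fewer cells of a type and less RNA per cell cannot be told apart. Since the comparison was made within pairs, a gene of these cells could be low in both libraries and still change. Mfge8, a secreted protein of astrocytes, was lower in the RIP in each pair at -0.81 ± 0.10, and C3, measured almost only in replicate 3, was not called at 0.21 ± 0.19. Markers of 1 cell type went in different directions. Of the 8 astrocyte markers 2 were higher and 5 were lower, of the 7 excitatory neuron markers 4 were higher and 1 was lower, and of the 7 inhibitory neuron markers 2 were higher and 3 were lower. Over all protein-coding genes, 40.6% were higher and 28.3% were lower.

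A direct comparison with the other RIPs was made in 1 fit of all 12 libraries, with a fold change of at least 2. Against the YTHDF1 RIP, 616 genes were higher in the YTHDF3 RIP (3.6% of those tested) and 1613 were lower (9.42%). Against the YTHDF2 RIP, 159 were higher (0.928%) and 507 were lower (2.96%). Without replicate 1 the counts against the YTHDF2 RIP were 0 higher and 1 lower, and without replicate 2 they were 0 and 3, although edgeR's unadjusted p was at most 0.05 at 2-fold or more for 280 and 378 genes higher and 1187 and 1160 lower. Among 75 histone genes 27 were lower in the YTHDF3 RIP than in the YTHDF1 RIP and 38 were lower than in the YTHDF2 RIP, with 1 and 0 higher. Of the 144 genes lower in the YTHDF3 RIP than in both other RIPs, 124 were also lower than input, beside 32.2% of all genes tested, and only 64 were protein-coding. Of the 29 genes higher than in both, 20 were higher than input, beside 36.3% of all. The same 3 YTHDF3 RIP libraries entered each of these comparisons, which favours such overlaps in advance, so they are not separate support. Rsrp1 differed most from the YTHDF1 RIP among genes higher in the YTHDF3 RIP, with 344, 290 and 320 CPM against 69.4, 57.1 and 20.8 CPM on the scale of the 12 libraries (log2 difference 2.78 ± 0.35, edgeR adjusted p = 0.000966). Reads assigned to Lars2, whose origin was not tested, were lower in the YTHDF3 RIP than in the YTHDF2 RIP, at 74.2, 28.9 and 42.4 CPM against 3210, 4582 and 6078 CPM (-6.72 ± 0.71, edgeR adjusted p = 0.00415), and in both comparisons the groups did not overlap. Of the other genes with extreme values, Gm10801, Gm10800 and Gm10717 were below 5 CPM in Input and the YTHDF3 RIP and were highest in 1 library of each of the other RIPs.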

How the data were processed

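Per the labels and the file headers, total RNA was made into strand-specific libraries that carry molecular identifiers, and the authors trimmed the reads with cutadapt 3.4, aligned them with STAR 2.7.7a to mm10 and removed duplicates with UMI-tools 1.1.1. The deposited values are unnormalized counts that the authors obtained with featureCounts 2.0.1 on the genes of Ensembl release 97, and per the file headers a read was counted for every gene it overlapped and at every reported alignment. Counts of gene families, pseudogenes and small RNAs are therefore inflated and not independent. The authors' tables of comparisons, which hold fold changes and p-values, were not used.

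Genes were kept when normalized counts averaged 10 or more across all 12 libraries (17126 of 55573) and were fitted with edgeR 4.0.16 in R 4.3.3, using TMM and the replicate number as a block on the 6 libraries. Same-numbered libraries come from 1 shared lysate. Values after ± are standard errors, the log2 fold change over the square root of F, and each group has n = 3. The script was tested on simulated data. Symbols, biotypes, and 1 mRNA per gene (APPRIS principal, then longest coding sequence) came from GENCODE M21 (GRCm38), and 93 gene IDs had no match.

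The genes named are 9 chosen ones, the 10 highest and 10 lowest protein-coding calls with a mean count of at least 100, 3 agreeing pairs and no predicted symbol, the extreme called members of each list and its defining members, the 4 highest and 4 lowest of other biotypes, the 5 most abundant, those differing most between RIPs and the 5 with the largest replicate terms. Other members were named after their values were seen, and some genes that the rule names are not reported here. The members and lists were chosen with earlier results of these data known. Alternatives were no block, all 12 libraries, DESeq2 1.42.0, its size factors, library size alone, TMM over protein-coding genes, no filter, a minimum of 50, removal of a loess length trend (span 0.3) and leaving out each replicate. A filter over the 6 libraries and thinning to equal depth were added after the data were seen.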

Additional observations from a re-analysis of the deposited data

Results flagged for a closer look

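Of the 9 genes chosen for every comparison, 4 had a level in the YTHDF3 RIP that differed by at least 2-fold from that in another RIP in the direct test over 12 libraries (edgeR, adjusted over all genes tested). Actb was at 595, 464 and 509 CPM in the YTHDF3 RIP and 1237, 4418 and 1922 CPM in the YTHDF1 RIP, a log2 difference of -2.16 ± 0.404 (edgeR adjusted p = 0.00615), and it was called under all 9 alternatives. Ythdf3 was at 68.1, 74.2 and 62.9 CPM in the YTHDF3 RIP against 140, 271 and 232 CPM in the YTHDF1 RIP (-1.63 ± 0.234, edgeR adjusted p = 0.00183), and was not called with library size alone, at -0.88. Ythdf2 differed from the YTHDF1 RIP by -1.14 ± 0.165 (edgeR adjusted p = 0.00195) and was not called with library size alone, without the filter on low counts or without replicate 2. Eif5a was at 26.9, 19.6 and 22.8 CPM in the YTHDF3 RIP against 50.7, 71.8 and 61.0 CPM in the YTHDF2 RIP (-1.38 ± 0.261, edgeR adjusted p = 0.0235), and was not called when any replicate was left out. The groups compared did not overlap for any of these.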

How the results depend on the processing

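The lysate of each replicate was shared, so pairs were kept as a block. With no replicate block, 3764 genes were higher and 4171 were lower, and with all 12 libraries in 1 fit 2782 and 3841. Leaving out each replicate gave 5227 to 5676 higher and 5271 to 5705 lower, and thinning all libraries to the smallest total gave 5821 and 5414. TMM over protein-coding genes gave 4888 higher and 6283 lower (43.8% of calls higher, a shift of the median by -0.16). Removing the trend on exonic length gave 5841 and 5110. Of the 11719 calls, 8319 were kept on their side and 359 turned to the other. Of 111 named genes, 74 kept direction and call in all 14 alternatives. Map2, Camk2a, Ndufs1, Gabra2, Atf3, Tubb3 and Ubb were not called after the removal of the length trend. The log2 fold change of Cadm4 turned after that removal (0.126), and the log2 fold change of C3, which was not called, turned with all 12 libraries (-0.0621), with DESeq2 (-0.824), after that removal (-0.0239) and without replicate 3 (-1.56, and 0.231 without replicate 2). Causes were not tested.

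Comparisons between RIPs were less stable. Against the YTHDF1 RIP, library size alone gave 3453 higher and 688 lower, no filter gave 1182 higher, and leaving out a replicate gave 247 (without replicate 1) to 690 (without replicate 3) higher and 779 (without replicate 2) to 1102 lower. Against the YTHDF2 RIP, DESeq2 gave 341 higher and 940 lower, library size alone 658 higher, and no filter 811 higher and 1047 lower. Leaving out a replicate there gave 0 to 375 higher, with edgeR calling 280 at an unadjusted p of at most 0.05 without replicate 1, and 1 to 428 lower. Total counts ran from 6020072 to 38909592 over the 12 libraries, with the YTHDF2 RIP libraries between 6020072 and 9259893, which limits the precision of genes with low counts there.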
